A study of Homo sapiens with 6 samples.

Results

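Chromatin of breast cancer cells given progestin for 5 min was set against that of untreated cells, along all 22 autosomes. Both were immunoprecipitated with an antibody against PARP1, as separate samples. PARP1 is an abundant nuclear enzyme that binds nucleosomes and DNA ends and, once active, attaches chains of ADP-ribose to histones, to other chromatin proteins and to itself, which loosens chromatin and draws in further factors. In hormone-responsive breast cells it is known as an early partner of the progesterone receptor, and CDK2, a cyclin-dependent kinase best known for its work in the cell cycle, is the kinase that the study links to its activation.

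The cells were T47D-MTVL, a line derived from the T47D breast carcinoma line and carrying an integrated luciferase reporter under the mouse mammary tumour virus promoter. All cells were first kept in phenol red-free medium with charcoal-stripped serum and then for a day without serum. The 5 min library came from cells given R5020, a synthetic progestin, at 10 nM, and the 0 min library from cells labelled as untreated. Both were fixed with formaldehyde and precipitated with anti-PARP1. The series holds 6 libraries in all, for PARP1 and for CDK2 at 0, 5 and 30 min, with 1 library for each antibody and time and therefore no error between replicates for any value.

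The members are 10 kb windows of the autosomes with a mean of at least 10 reads over the 6 libraries, of which there were 263610 among 288113 autosomal windows and 303641 windows in the whole series. Of the windows left out, 20643 held 0 reads in all 6 libraries. The 149 windows just inside the minimum, with means of 10 to 11 reads, had a pooled 5 over 0 min ratio of 1.02, and the 135 windows just outside it, with means of 9 to 10, had 0.840. The windows were also summed to 1 Mb blocks, of which 2679 held a mean of at least 5000 reads. The PARP1 library of 5 min held 58495554 reads and that of 0 min 55772389, with a median compared window of 198 and 188 reads and a median block of 19328 and 17778 reads. Every ratio below is a ratio of shares of a library's total reads. A ratio above 1 says that a region took a larger part of the 5 min library, and not that more PARP1 was bound there in absolute terms, since neither an input nor a spike-in was used here.

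Along the genome the libraries were uneven to different degrees. The variance between neighbouring windows over that expected of independent reads was 11.5 in PARP1 at 5 min and 6.12 at 0 min, while the 4 other libraries ran from 7.44 to 51.8. The highest value was that of CDK2 at 5 min, which also held 0 reads in 2735 of the compared windows, against 12 in PARP1 at 5 min and 4 in PARP1 at 0 min. Intervals called widened below allow for this variance. They cover counting error and the unevenness between neighbouring windows of the 2 libraries. They cover neither unevenness over longer distances nor any difference between cultures or precipitations.

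Gene-dense chromosomes mostly took a larger share of PARP1 reads at 5 min than at 0 min, and gene-poor ones mostly a smaller one. The widened interval lay above 1 on 11 autosomes and below 1 on the other 11, and with TMM or size factors in place of totals it lay above 1 on 11 and below 1 on 7. Chromosome 19, the most gene-dense autosome, took 1.32% of reads at 5 min against 1.15% at 0 min, and chromosome 22 took 0.846% against 0.740%. Behind them came chromosomes 17, 16 and 20, with ratios of 1.09, 1.08 and 1.07, and then a step down to chromosome 15 with 1.03 (widened 95% interval 1.03 to 1.04), chromosome 9 with 1.03 (1.02 to 1.03) and chromosome 10 with 1.02 (1.02 to 1.03). Chromosomes 1, 11 and 21 stood at 1.01 each. Chromosome 12 was nearest to 1 from below, with 0.996 (0.991 to 0.9999), and stood at 1.00, just above 1, with TMM or size factors.

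On the lower side, chromosomes 14, 18 and 2 had 0.992, 0.991 and 0.990, and chromosomes 7 and 6 both had 0.986. Their intervals overlap, so these neighbours in the order cannot be told apart. Chromosomes 3, 8 and 5 followed with 0.979, 0.975 and 0.970. Chromosome 13, a long chromosome with few genes, took 2.95% of reads at 5 min against 3.10% at 0 min, and chromosome 4 took 4.86% against 5.13%, the lowest ratio of all with 0.947 (0.942 to 0.952).

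**Figure D1:**
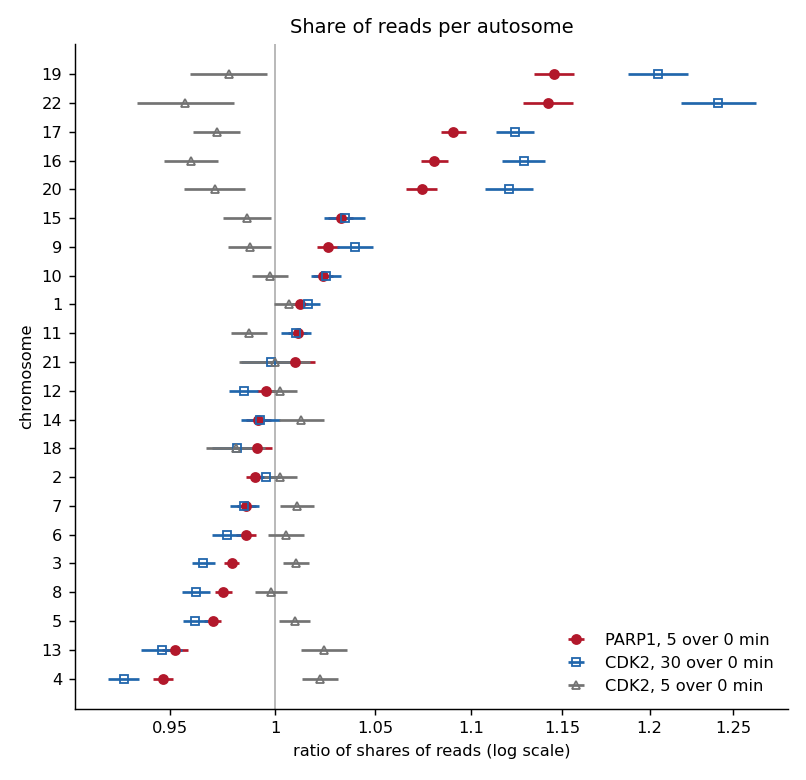
Ratio of the share of reads per autosome (x axis, log scale) for PARP1 at 5 over 0 min (filled circles), CDK2 at 30 over 0 min (squares) and CDK2 at 5 over 0 min (triangles), with chromosomes from the highest to the lowest PARP1 ratio down the page; lines are widened 95% intervals and each antibody and time has 1 library. Chromosomes 19 and 22 stand at 1.15 and 1.14 for PARP1 and chromosome 4 at 0.947, and the squares follow the circles while the triangles run the other way.

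The order of the chromosomes went broadly with their gene density. Chromosome 19 has 26.4 protein-coding genes in RefSeq per 100 compared windows, chromosome 17 has 15.3, chromosome 22 has 13.6 and chromosome 16 has 11.4, whereas chromosome 4 has 4.12 and chromosome 13 has 3.55. Over the 22 autosomes the log2 ratio and this density had a Pearson correlation of 0.86 and a Spearman correlation of 0.89, and 0.88 and 0.87 without chromosome 19. Chromosome 18 departed from the order, with 3.64 genes per 100 windows, close to chromosome 13, but a ratio of 0.991. Chromosome 10 departed as well, with 5.73 genes per 100 windows and 1.02, above chromosome 11 with 9.99 genes and 1.01, chromosome 1 with 9.37 and 1.01, and chromosome 12 with 7.87 and 0.996. The mean G+C content of RefSeq promoters, which covers only the bases around gene starts, was 62.4% on chromosome 19, 62.7% on chromosome 22 and 53.9% on chromosome 4, and its correlation with the log2 ratio was 0.96 over 21 autosomes, chromosome 8 not being used. Neither trend was particular to PARP1 at 5 min. For PARP1 at 30 min, which shares the 0 min library, and for CDK2 at 30 min the Pearson correlations with gene density were 0.85 and 0.83. With promoter G+C they were 0.96 for both. For CDK2 at 5 min they were -0.6 and -0.82. The values for PARP1 at 5 min are descriptions across chromosomes that share the same 2 libraries. Gene numbers and promoters are those of GRCh38.p14, while the windows are in hg19, so only their totals per chromosome were used, and the base composition of the windows themselves was not analysed here. The part of base composition in these ratios was not tested.

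Whole chromosomes averaged over unlike parts. Chromosomes were divided at their longest run of windows without reads, which marks the centromeric gap on most of them. On chromosomes 13, 14, 15, 21 and 22 this run began at position 1, so only the part after it was used. The short arm of chromosome 6 had a ratio of 1.03 (1.03 to 1.04) and its long arm 0.949 (0.943 to 0.955). Chromosome 9 showed the opposite, with 0.954 (0.943 to 0.964) on the short arm and 1.054 (1.047 to 1.061) on the long arm. Chromosome 4 was at 1.0 (0.992 to 1.01) on its short arm, and its low share came from the long arm with 0.928 (0.922 to 0.933). The short arm of chromosome 19 had the highest ratio of any arm, 1.18 (1.16 to 1.2), with 319626 reads at 5 min against 258714 at 0 min, above the 1.12 (1.11 to 1.14) of its long arm. On chromosome 20 the long arm was the higher one, with 1.1 (1.09 to 1.11) against 1.03 (1.01 to 1.04) on the short arm, and on chromosome 11 the long arm had 1.03 (1.02 to 1.03) and the short arm 0.984 (0.977 to 0.992).

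The largest gains in share lay at the ends of chromosomes. Windows within 1 Mb of a chromosome end held 773500 reads at 5 min and 635945 at 0 min, a pooled ratio of 1.16 (1.15 to 1.17). The ratio was 1.15 at 1 to 2 Mb, 1.1 at 2 to 5 Mb, 1.045 at 5 to 10 Mb and 1.03 at 10 to 20 Mb. It lay just under 1 at 20 to 40 Mb, with 0.996 (0.994 to 0.998), and at 0.970 (0.968 to 0.971) farther in. Each step away from the end was thus lower than the one before it. The steps pool different chromosomes, since short ones such as 19 and 22 have no windows over 40 Mb from an end. The part of this in the fall was not tested.

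**Figure D2:**
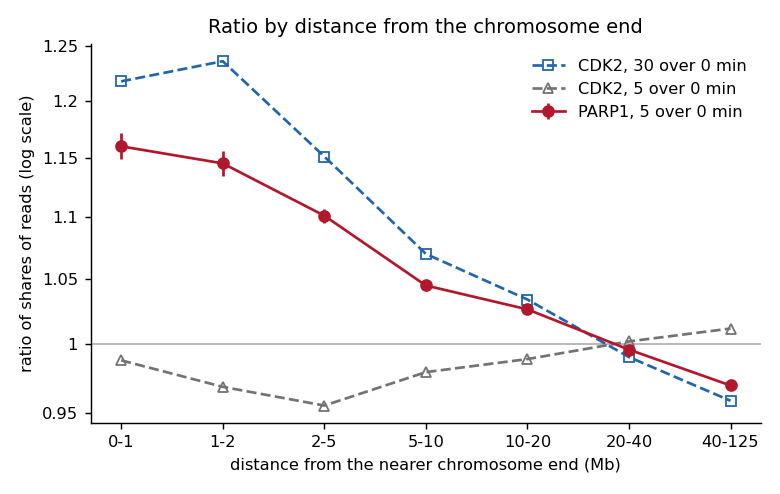
Pooled ratio of the share of reads (y axis, log scale) by distance from the nearer chromosome end in Mb (x axis) for PARP1 at 5 over 0 min (filled circles, with widened 95% intervals), CDK2 at 30 over 0 min (squares) and CDK2 at 5 over 0 min (triangles), over the autosomal windows compared. PARP1 runs from 1.16 within 1 Mb of an end to 0.970 beyond 40 Mb.

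Of 39 chromosome ends of 5 Mb with at least 100 compared windows, 33 had a widened interval whose rounded lower bound lay above 1. A ratio above that of the rest of their chromosome was seen at 37. The gain was greatest at the short-arm end of chromosome 19, with 62378 reads at 5 min against 46007 at 0 min (1.29, 1.25 to 1.34), and at the long-arm ends of chromosomes 17 (1.26), 9 (1.26) and 16 (1.25). Ends stood out also on chromosomes that were low as a whole. The short-arm end of chromosome 4 had 1.17 (1.14 to 1.2) against 0.938 over the rest of that chromosome, the long-arm end of chromosome 13 had 1.13 (1.1 to 1.16) against 0.942, and the long-arm end of chromosome 8 had 1.2 (1.17 to 1.23) against 0.968. The first 5 Mb of chromosome 3 was the exception in the other direction, with 113554 reads at 5 min and 113025 at 0 min (0.958, 0.935 to 0.982). For 5 other ends, the first 5 Mb of chromosomes 8 and 9 among them, the rounded interval held or touched 1. That of the first 5 Mb of chromosome 18 (1.03) only touched it, with a lower bound that rounds to 1.0.

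At the scale of 1 Mb, shifts in both directions were frequent and small. Of the 2679 blocks, 527 had a ratio of at least 1.1 (19.7%) and 523 were lower by the same factor (19.5%). With the widened interval 806 blocks lay above 1 and 788 below 1, and for 1085 the interval held 1. The lowest block had 0.779, the median block 0.999 and the highest 1.34, and the middle 90% lay between 0.847 and 1.19. All 22 chromosomes had at least 1 block past 1.1-fold higher, and 21 had one past 1.1-fold lower, chromosome 22 being the exception. Differences between chromosomes made up only 15.6% of the variance of the log2 block ratios, so most of it lay within chromosomes.

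**Figure D3:**
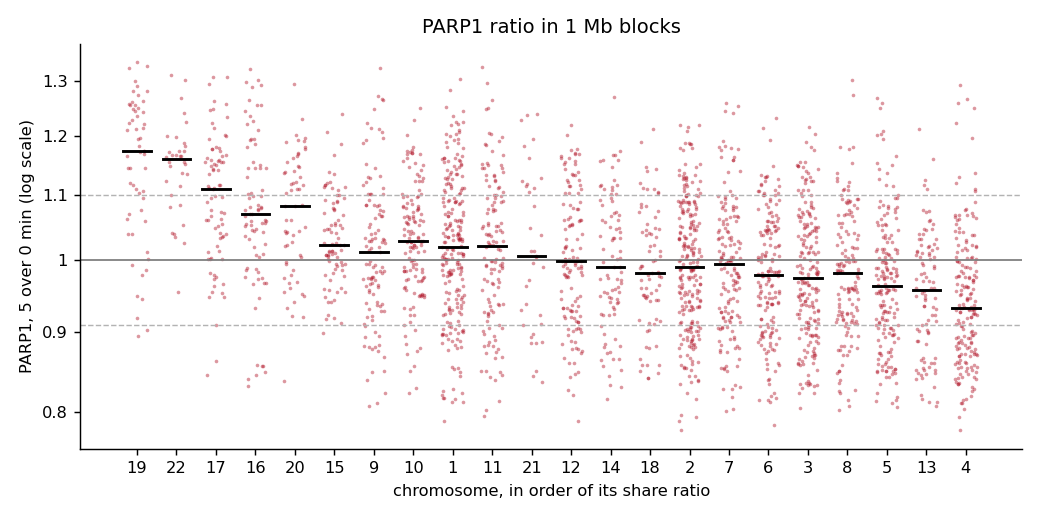
PARP1 ratio of 5 over 0 min (y axis, log scale) in each of the 2679 blocks of 1 Mb (points), by chromosome in the order of its share ratio (x axis, points spread sideways for legibility); bars are the median block, the solid line marks 1 and the dashed lines 1.1-fold in each direction. Median blocks run from 1.17 on chromosome 19 to 0.932 on chromosome 4, and single blocks of most chromosomes lie on both sides of 1.

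Chromosomes differed in how far they were shifted as a whole. On chromosome 22, 26 of 34 blocks were past 1.1-fold higher and 0 lower, and on chromosome 19, 40 of 57 were higher and 2 lower. Chromosome 17 had 40 of 79 higher and 3 lower. At the other end chromosome 4 had 11 of 187 higher and 73 lower, and chromosome 13 had 5 of 96 higher and 32 lower. Chromosome 21 was split, with 12 of 36 blocks higher and 8 lower around a median of 1.01, and the SD of its log2 block ratios was 0.17, the widest of the 22, against 0.1 on chromosomes 22 and 15.

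Many shifted blocks lay side by side, mostly in short stretches. Of the higher blocks 78.2% lay next to another higher block and of the lower ones 78.4% next to another lower one, and yet 115 of 227 higher stretches and 113 of 217 lower ones were single blocks. The log2 ratios of blocks had a Pearson correlation of 0.74 with those 1 Mb on, 0.37 at 5 Mb and 0.14 at 20 Mb. The longest higher stretches spanned 13 blocks at 35000001 to 48000000 on chromosome 22 and 12 blocks each on chromosome 11, at 61000001 to 73000000, and on chromosome 9, at 129000001 to 141000000. The stretch on chromosome 22 held 201029 reads at 5 min against 163155 at 0 min (ratio 1.17, widened interval 1.15 to 1.2). That on chromosome 11 held 262386 against 212429 (1.18, 1.16 to 1.2), and that on chromosome 9 held 353962 against 278490 (1.21, 1.19 to 1.23). Chromosome 17 had 11 such blocks at 70000001 to 81000000 (1.2), and chromosome 19 had 10 at 10000001 to 20000000 (1.22) and 9 at 1 to 9000000 (1.27, 1.24 to 1.3).

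The longest lower stretches were as long and lay away from chromosome ends. The longest had 13 blocks at 18000001 to 31000000 on chromosome 5, with 251872 reads at 5 min against 283594 at 0 min (0.847, 0.833 to 0.861). Chromosome 13 had 12 blocks at 61000001 to 73000000 (0.849, 0.833 to 0.866) and 11 at 81000001 to 92000000 (0.863, 0.849 to 0.878). Chromosome 14 had 10 blocks at 40000001 to 50000000 (0.858), and chromosomes 3 and 4 had 9 each, at 82000001 to 91000000 (0.851) and at 59000001 to 68000000 (0.856). In all, 33 lower stretches ran over at least 5 blocks and held 223 of the 523 lower blocks, against 22 higher stretches that held 163 of the 527 higher blocks.

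The single block with the highest ratio was the tip of the short arm of chromosome 19, 1 to 1000000, with 9106 reads at 5 min and 6500 at 0 min. The block 85000001 to 86000000 on chromosome 16 held 49759 against 35857 reads (1.32, 1.27 to 1.38), 7000001 to 8000000 on chromosome 17 held 15981 against 11646 (1.31, 1.22 to 1.4), 20000001 to 21000000 on chromosome 22 held 8315 against 6044 (1.31, 1.19 to 1.44), and 1000001 to 2000000 on chromosome 1 held 12288 against 8985 (1.3, 1.21 to 1.41). Among the lowest, 115000001 to 116000000 on chromosome 6 held 11204 reads at 5 min against 13601 at 0 min (0.785, 0.728 to 0.847), 84000001 to 85000000 on chromosome 12 held 23810 against 28740 (0.790, 0.750 to 0.832), and 104000001 to 105000000 on chromosome 1 held 10259 against 12379 (0.790, 0.730 to 0.855). Chromosome 1 thus had blocks near both extremes.

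Block ratios were carried by many windows rather than by a few. Computed separately from the odd-numbered and from the even-numbered windows of a block, which share the libraries but no reads, the log2 ratios had a Pearson correlation of 0.88 over 2679 blocks, and the difference between these values had an SD of 0.077 against 0.151 for the block ratios themselves. The level of a block before hormone, read from the CDK2 library of 0 min, which takes no part in the ratio, did not go with it in one direction. With the blocks put in order of these reads and cut into 5 nearly equal groups, the group with the fewest reads had 216 of 536 blocks higher and 56 lower, with a median ratio of 1.07. The next group had 47 higher and 143 lower, with a median of 0.975. The middle group had 133 higher and 91 lower, with 1.0, the one above it 90 higher and 116 lower, with 0.994, and the group with the most reads had 41 higher and 117 lower, with 0.983.

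CDK2 has its own 0 min library, so its ratios share no reads with those of PARP1, and they were set beside them for the same regions. At 30 min CDK2 lay on the same side of 1 as PARP1 at 5 min on 21 of 22 autosomes, chromosome 21 excepted, where it stood at 0.998. Its ratio was 1.24 on chromosome 22, 1.21 on chromosome 19, 0.946 on chromosome 13 and 0.929 on chromosome 4, and on 18 of the 21 it was farther from 1 than that of PARP1. TMM and size factors raised the log2 ratio of CDK2 at 30 min by 0.045 and 0.055. With them the side was shared on 17 and 16 autosomes, and CDK2 was the farther from 1 on 12 of these with either. Both tallies thus rest partly on the scaling. All 527 blocks in which PARP1 was at least 1.1-fold higher had a CDK2 ratio above 1 at 30 min (median 1.21), as did 1 of the 523 lower blocks (median 0.844), or 11 of them with TMM and 12 with size factors. The log2 ratios of both had a Pearson correlation of 0.91 over 2679 blocks, and within single chromosomes it ran from 0.56 on chromosome 22 to 0.95 on chromosome 21.

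CDK2 at 5 min, the time that matches, did not follow PARP1. With scaling by totals its ratio lay on the other side of 1 on 19 of 22 autosomes, although with TMM factors it was above 1 on all 22, between 1.0 and 1.07, so that the order of the chromosomes and not the side of 1 carries the contrast. The median CDK2 ratio at 5 min was 0.963 in the higher PARP1 blocks, 0.994 in the blocks between and 1.04 in the lower ones, and 26.0% of the higher against 76.3% of the lower blocks were above 1. The Pearson correlation with PARP1 was -0.40 over all blocks and -0.29 when PARP1 was read from odd and CDK2 from even windows. This CDK2 library is the one with the variance of 51.8 and the 2735 windows without reads, and the part of that unevenness in the correlation was not tested. Blocks share base composition and copy number across all libraries.

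**Figure D4:**
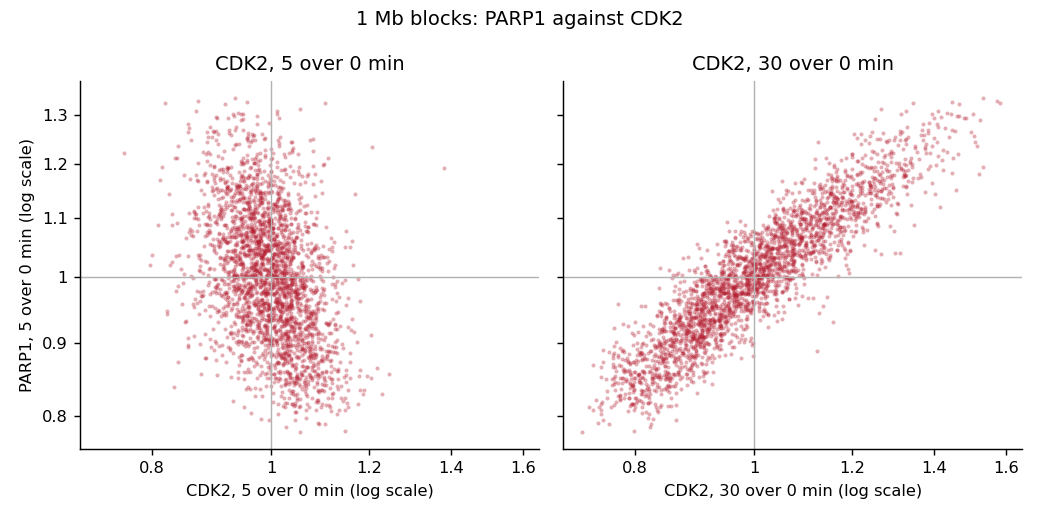
Ratio of PARP1 at 5 over 0 min (y axis, log scale) against the ratio of CDK2 at 5 over 0 min (left) and at 30 over 0 min (right, x axes on log scale) in 2679 blocks of 1 Mb, each point a block; lines mark 1. The points fall with a correlation of -0.40 on the left and rise with 0.91 on the right.

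The correlation between PARP1 at 5 min and CDK2 at 30 min rose with the size of the regions. Counting error and local unevenness weigh more in small regions, and their part in this rise was not tested. The Pearson correlation of the log2 ratios was 0.17 over 257280 single windows with a mean of at least 50 reads and at least 1 read in each of the 6 libraries, 0.45 at 50 kb, 0.61 at 100 kb, 0.86 at 500 kb, 0.91 at 1000 kb and 0.97 at 5000 kb. That with CDK2 at 5 min went from -0.03 in single windows to -0.62 at 5000 kb. The SD of the log2 PARP1 ratio shrank over the same steps, from 0.414 in single windows to 0.151 in blocks of 1 Mb and 0.125 at 5 Mb.

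The stretches named above can be followed through all times. In the 9 blocks at 1 to 9000000 on chromosome 19 the ratio to 0 min was 1.27 for PARP1 at 5 min and 1.14 at 30 min, and for CDK2 it was 0.942 at 5 min and 1.38 at 30 min. In the 13 blocks on chromosome 5 it was 0.847 and 0.893 for PARP1 and 1.08 and 0.825 for CDK2. At 30 min PARP1 was closer to 1 than at 5 min on 21 of 22 autosomes, or 18 with TMM or size factors, but both PARP1 ratios use the same 0 min library, so their likeness is no separate observation.

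Single windows of 10 kb showed larger ratios and less depth. Calls needed a 2-fold ratio in either direction together with an adjusted p under 0.05 (Benjamini-Hochberg) in an exact binomial test, two-sided, of the counts. This compares the libraries and not the conditions. By this rule 2120 windows were called higher at 5 min (0.804% of those compared) and 3844 lower (1.46%), and 0.842% and 1.52% had the 2-fold ratio alone. The test allows for counting error alone. When the counts were divided by 6.44, the variance of this comparison around the local ratio over that of independent reads, 1 window was called higher and 0 lower, so the calls below order and describe windows of these 2 libraries and are not a set that holds against their local unevenness. The middle 90% of all windows lay between ratios of 0.607 and 1.57. The share of windows past 2-fold fell with depth. Among windows with a mean of 10 to 50 reads 10.6% were at least 2-fold higher and 15.6% at least 2-fold lower. Among those with 200 to 300 reads it was 0.261% and 0.391%, and of 1845 windows with at least 500 reads 0 passed either limit.

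Called windows mostly stood alone. A called neighbour in the same direction was next to 154 of the 2120 higher windows (7.26%) and 259 of the 3844 lower ones (6.74%). Of all compared windows 0.804% were called higher and 1.46% lower, and most windows have a neighbour on each side. Of the windows in higher blocks 2.25% were called higher and 0.570% lower, of those in the blocks between 0.530% and 1.17%, and of those in lower blocks 0.143% and 3.05%. In numbers, 1137 of the windows called higher lay in higher blocks, 848 in the blocks between and 74 in lower blocks, and of those called lower 288, 1877 and 1580. Blocks and calls come from the same pair of libraries, so these shares are a description. Chromosome 19 had the largest share of windows called higher, 4.36%, and chromosome 4 the largest share called lower, 2.85%.

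Read across all libraries, the called windows stood apart in the compared pair more than elsewhere. The windows called higher held 1.54, 3.43 and 2.32 RPM per window (reads per 1000000 reads of the library) in PARP1 at 0, 5 and 30 min, and 2.11, 1.99 and 2.67 in CDK2. All compared windows averaged 3.69 to 3.70 in each library. In the windows called higher all 6 libraries lay under this average, with PARP1 at 5 min the highest of the 6 and PARP1 at 0 min the lowest. The windows called lower held 2.94, 1.29 and 2.30 in PARP1 and 2.53, 2.64 and 2.18 in CDK2. These too were all under the average, with PARP1 at 0 min the highest of the 6 and PARP1 at 5 min the lowest. Windows were chosen on the first pair, so its values are no test. In the other antibody the pooled ratio to 0 min in windows called higher was 0.946 at 5 min and 1.27 at 30 min, and in windows called lower 1.04 and 0.861.

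**Figure D5:**
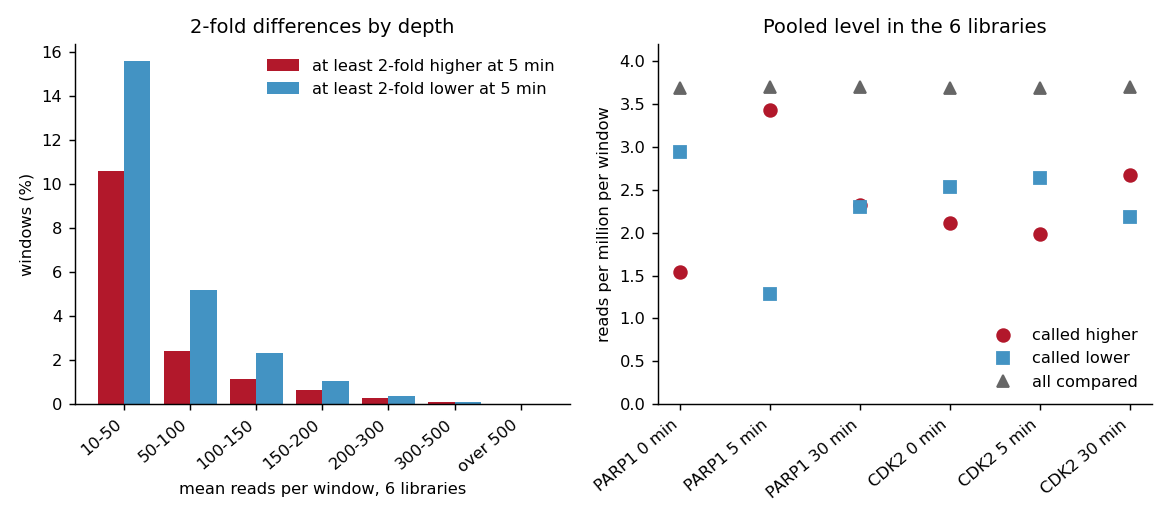
Left, share of 10 kb windows at least 2-fold higher or lower for PARP1 at 5 than at 0 min (y axis, percent) by mean reads per window over the 6 libraries (x axis); right, pooled RPM per window (y axis) in each of the 6 libraries for windows called higher, called lower and all compared. The shares fall from 10.6% and 15.6% in the shallowest class to 0 above 500 reads, and the called windows differ most between PARP1 at 5 and 0 min.

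Single windows are named among those with a mean of at least 100 reads, with widened intervals. Of the 20 windows named by rule, 19 were no longer called when the counts were divided by 6.44. Of the higher ones, 17740001 to 17750000 on chromosome 17 led with 281 reads at 5 min against 67 at 0 min (ratio 4.0, widened 95% interval 2.03 to 7.86, exact interval for counting error alone 3.05 to 5.30), and PARP1 at 30 min had 228 there. It was followed by 49930001 to 49940000 on chromosome 3, with 224 reads against 52 (4.11, 1.91 to 8.83), and by 29630001 to 29640000 on chromosome 1, with 298 against 85 (3.34, 1.81 to 6.16). At 30 min PARP1 had 131 reads in that window of chromosome 3 and 138 in that of chromosome 1.

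CDK2 reads went in different directions in these windows. The variance between neighbouring windows was 51.8 in CDK2 at 5 min and 24.1 at 30 min, and no intervals were set for its single windows. The part of that unevenness in the differences below was not tested. At 27660001 to 27670000 on chromosome 1 PARP1 had 290 reads at 5 min against 83 at 0 min. CDK2 had 93, 409 and 188 reads there at 0, 5 and 30 min, so the share at 5 min was larger with both antibodies. At 143360001 to 143370000 on chromosome 8, with 354 PARP1 reads at 5 min against 107 at 0 min, CDK2 had 76, 38 and 191. At 17910001 to 17920000 on chromosome 19, with 235 against 69, it had 86, 82 and 12, and at 220090001 to 220100000 on chromosome 2, with 295 against 87, it had 118, 94 and 76.

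The deepest of the 10 higher windows was 44970001 to 44980000 on chromosome 11, with 184, 568 and 444 PARP1 reads at 0, 5 and 30 min. Its ratio at 5 min was 2.94 (1.93 to 4.49), and its surroundings, over 20 windows on each side, had 1.22. It was the only window of all compared that was still called when the counts were divided by 6.44. CDK2 had 220, 194 and 368 reads there.

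The foremost lower window lay at 5400001 to 5410000 on chromosome 18 and held 25 reads at 5 min against 162 at 0 min (0.147, 0.0506 to 0.428) and 163 at 30 min. The window 184210001 to 184220000 on chromosome 2 held 46 against 205 (0.214, 0.0951 to 0.481), and 201 at 30 min, and 2750001 to 2760000 on chromosome 1 held 28 against 134 (0.199, 0.0709 to 0.560), and 175 at 30 min. Among the PARP1 libraries only that of 5 min was low in these 3 windows. CDK2 had 155, 151 and 49 reads at 0, 5 and 30 min in the window of chromosome 18, 101, 46 and 41 in that of chromosome 2 and 129, 77 and 82 in that of chromosome 1. In 56900001 to 56910000 on chromosome 14 PARP1 held 173, 45 and 66 reads at 0, 5 and 30 min and CDK2 161, 152 and 41. The surroundings of the 10 lower windows had local ratios between 0.869 and 1.16, so none lay in a region as low as the window itself.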

How the data were processed

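Per the submitters' processing notes the aligner was Bowtie 1.0.0 and the build hg19 (GRCh37). The authors deposited raw read counts per 10 kb window, 1 column per library and without normalization. Filters on duplicates, repeated matches and quality are not given in the sources. Sequences of hg19 were not used here, so windows were not assigned to genes. Libraries held 40097131 to 63448449 reads and were scaled by totals. Chromosome X was left out. Ratios carry 95% intervals, exact binomial or widened by the variance between neighbouring windows. Windows were called by a two-sided exact binomial test with Benjamini-Hochberg adjustment and a 2-fold limit. The script was run on simulated Poisson counts, which lack the libraries' excess variance. Blocks were described without a test. Reads without molecular identifiers are not independent, so exact intervals cover counting error only. Named were the 10 higher and 10 lower called windows (mean at least 100) with the interval bound farthest from 1, at most 1 per Mb, the 12 most extreme blocks each way, at most 2 per chromosome, and the 6 longest stretches each way; the text gives a part of them. The regions and rules were chosen with earlier results of these data known. Alternatives were TMM factors (edgeR 4.0.16), size factors (DESeq2 1.42.0), other minimums, fold limits and block sizes, division by dispersion, local ratios, thinning, and odd- or even-numbered windows alone. Computation used Python 3.11.15, numpy 2.4.6, scipy 1.17.1 and pandas 2.3.3.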

Additional observations from a re-analysis of the deposited data

Results flagged for a closer look

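On 14 autosomes PARP1 and CDK2 lay on opposite sides of 1 at 5 min with scaling by totals and widened intervals clear of 1. The PARP1 ratio divided by the CDK2 ratio was 1.193 on chromosome 22, 1.172 on chromosome 19, 1.126 on chromosome 16, 1.122 on chromosome 17, 1.106 on chromosome 20, 1.047 on chromosome 15, 1.039 on chromosome 9 and 1.024 on chromosome 11. It was 0.9792 on chromosome 14, 0.9755 on chromosome 7, 0.9692 on chromosome 3, 0.9608 on chromosome 5, 0.9298 on chromosome 13 and 0.9265 on chromosome 4. With 1 library per antibody and time the difference was not tested. With TMM or size factors the CDK2 ratio was above 1 on all 22 autosomes. By the same rule 7 autosomes were then opposed, all with PARP1 below 1. Not all of these 7 are listed above, and none of the listed autosomes with PARP1 above 1 met the rule.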

How the results depend on the processing

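TMM and size factors raised the log2 PARP1 ratio by 0.012 and 0.011. With them chromosome 12 passed to the other side of 1 (1.00 with both), chromosome 4 stood at 0.955 and 0.954, and windows over 40 Mb from an end at 0.978 and 0.977, while chromosome 19 and the terminal 1 Mb stayed within their intervals. Calls of windows depended on the fold limit, with 17834 higher and 22338 lower at 1.5-fold and 168 and 436 at 3-fold. Division of the counts by the dispersion left 1 higher and 0 lower. Against the local ratio 1455 windows were higher and 3085 lower, with TMM factors 2267 and 3632. A minimum set on the PARP1 columns alone, added after seeing the data, gave 2164 and 3840. With a limit of 5% 33.1% of blocks were higher and 32.7% lower, and at 1.2-fold 4.59% and 3.02%. Blocks of other sizes and odd- or even-numbered windows alone gave 18.5 to 21.1% higher. The correlation with CDK2 at 5 min was -0.29 with PARP1 from odd and CDK2 from even windows; the cause was not tested. That with CDK2 at 30 min ran from 0.84 to 0.91. Of the 20 named windows, 19 lost their call under the dispersion, 1 at 3-fold, and none under the 9 other alternatives. No paired analysis was possible because each group has 1 library. Another 35 chromosome ratios under an alternative left their interval without a change of side. Depth limits single windows, where the share past 2-fold fell with the number of reads.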
